A study of Canis lupus familiaris with 18 samples.

Results

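The GADD45 genes encode small stress-induced nuclear proteins, and the 4 genes considered here were GADD45A, GADD45B, GADD45G and the gene of their partner protein GADD45GIP1. They were found by name, as probe sets (groups of short probes for 1 transcript) that the array's annotation assigns to a single one of these symbols. Of 43035 probe sets 3 met this rule, 1 each for GADD45B, GADD45G and GADD45GIP1, and GADD45A is not analysed here. These are 3 of the 15115 genes that the annotation names singly. The family was chosen by the measured values of GADD45G, which had stood out for feeding in subcutaneous fat in an earlier look at these arrays. Values of that comparison are therefore given as a description with no test, and so is every other comparison of GADD45G that uses subcutaneous arrays.

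The arrays came from 9 intact female beagles, 4 years old, each sampled in subcutaneous and in gonadal fat after 24 weeks and an overnight fast. The 4 control dogs (dogs 1, 3, 4 and 9) received food to keep their starting weight and were lean. The 5 ad libitum dogs (dogs 2, 5, 6, 7 and 8) ate the same diet without limit and were obese. This gives 18 arrays in 4 groups, of 4 and 5 arrays in each depot. Whole fat was used, so a difference in the share of a cell type and a difference in RNA per cell cannot be told apart.

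GADD45A, GADD45B and GADD45G bind PCNA, the CDK1 and cyclin B1 complex and the CDK inhibitor p21, and slow the cell cycle after stress. They also bind and switch on MAP3K4, the kinase above p38 and JNK, and take part in active removal of DNA methylation. GADD45B is known as a target of TGF-beta and NF-kappaB signalling, and GADD45G as a cytokine-inducible member. GADD45GIP1, also called CRIF1, is no member of the family by structure. It binds GADD45 proteins and is a part of the large subunit of the mitochondrial ribosome.

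All 3 probe sets lay above log2 4, the floor used for testing, in all 18 arrays. The probe sets of GADD45B and GADD45GIP1 carry the suffix that Affymetrix gives to sets that may read more than 1 transcript. Levels of different probe sets are not compared with each other. Within the groups the residual SD was 0.94 log2 units for GADD45G, 0.72 for GADD45B and 0.28 for GADD45GIP1, against a median of 0.39 over the 21484 probe sets tested.

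Fat cell markers were measured in every array (11 of 11 on the list, all of them tested). Skeletal muscle markers stood far above the other arrays in subcutaneous dogs 3 and 4, both control, and in gonadal dog 2, and markers of ciliated epithelium in subcutaneous dog 4 and gonadal dog 6. The feeding and depot differences of the members are given with and without these 4 arrays, and those of other genes with them. The score of mesothelial markers, a median log2 distance from each marker's median array, was 1.53 in subcutaneous dog 4. It was -2.96 to -2.45 in the other subcutaneous arrays and 0.02 to 3.73 in gonadal arrays. The labels describe only the subcutaneous arrays as deposited before, and depot cannot be told apart from a batch of arrays.

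GADD45G in subcutaneous fat was higher in every ad libitum dog than in every control dog. The control arrays read 6.55 in dog 1, 5.91 in dog 3, 5.04 in dog 4 and 5.84 in dog 9, a mean of 5.83 ± 0.62 (SD, n = 4). The ad libitum arrays read 10.30 in dog 2, 7.92 in dog 5, 8.19 in dog 6, 8.80 in dog 7 and 8.38 in dog 8, a mean of 8.72 ± 0.94 (SD, n = 5). The groups did not overlap, and dog 2 lay well above the other ad libitum dogs. The difference was 2.88 ± 0.58 log2 units (standard error from limma), a 7.39-fold difference. In this comparison 2.36% of all probe sets passed an adjusted p of 0.05. Of the 21484 tested 5085 had an unadjusted p under 0.05 (limma). How many probe sets keep the 2 groups apart without overlap was not counted. No call is given for the members because this comparison chose the family.

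**Figure D1:**
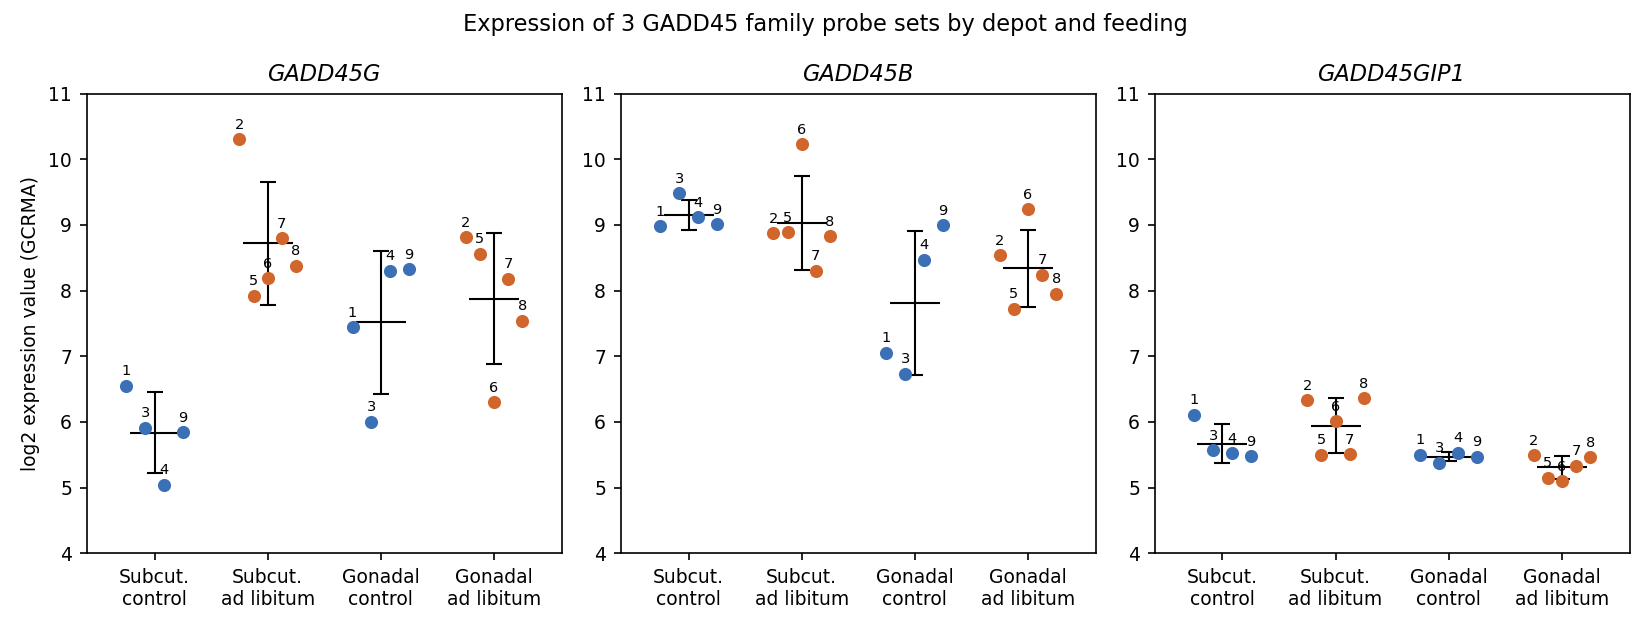
Log2 expression values (vertical axis) of the 3 probe sets in the 4 groups (horizontal axis); each point is 1 array with its dog's number, blue for control and orange for ad libitum dogs, and the bars show mean and SD. Subcutaneous GADD45G runs from 5.04 to 6.55 in control dogs and from 7.92 to 10.30 in ad libitum dogs, while the groups of GADD45B and GADD45GIP1 overlap in each depot.

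Other measures are given for the same subcutaneous arrays. All 11 fat cell markers had a positive feeding difference there (2 passed, median 0.71), and all 7 stromal markers a negative one (none passed, median -0.65). All 11 muscle markers tested were negative too (none passed, median -2.76), and the median over all genes was 0. Of all probe sets 2.36% passed in this comparison. The fat cell score of an array, the median over the list of each marker's log2 distance from its median array, ran from -1.45 to -0.28 in control dogs and from -1.22 to 0.70 in ad libitum dogs. Subcutaneous dog 5 was the exception among ad libitum dogs, with a score of -1.22 and a GADD45G value of 7.92. A further measure, the log2 signal at the 3' end of actin less that at its 5' end, is larger for shorter RNA. It averaged 4.75 ± 1.02 (SD, n = 4) in control and 3.49 ± 0.77 (SD, n = 5) in ad libitum arrays (exact permutation p = 0.0873, two-sided). The same measure for GAPDH did not show this difference. It averaged 2.52 ± 0.28 (SD, n = 4) in control and 2.51 ± 0.16 (SD, n = 5) in ad libitum arrays.

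The difference of GADD45G was 2.53 without the 4 arrays high in muscle or cilia markers, which leaves dogs 1 and 9 as subcutaneous controls. It was 2.25 with the actin signal in the fit and 2.08 with the fat cell score in the fit. The fat cell score, the actin fit and the feeding groups share the same arrays, and the part of each in the difference was not tested further. Leaving out each dog in turn gave 2.49 to 3.12.

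**Figure D2:**
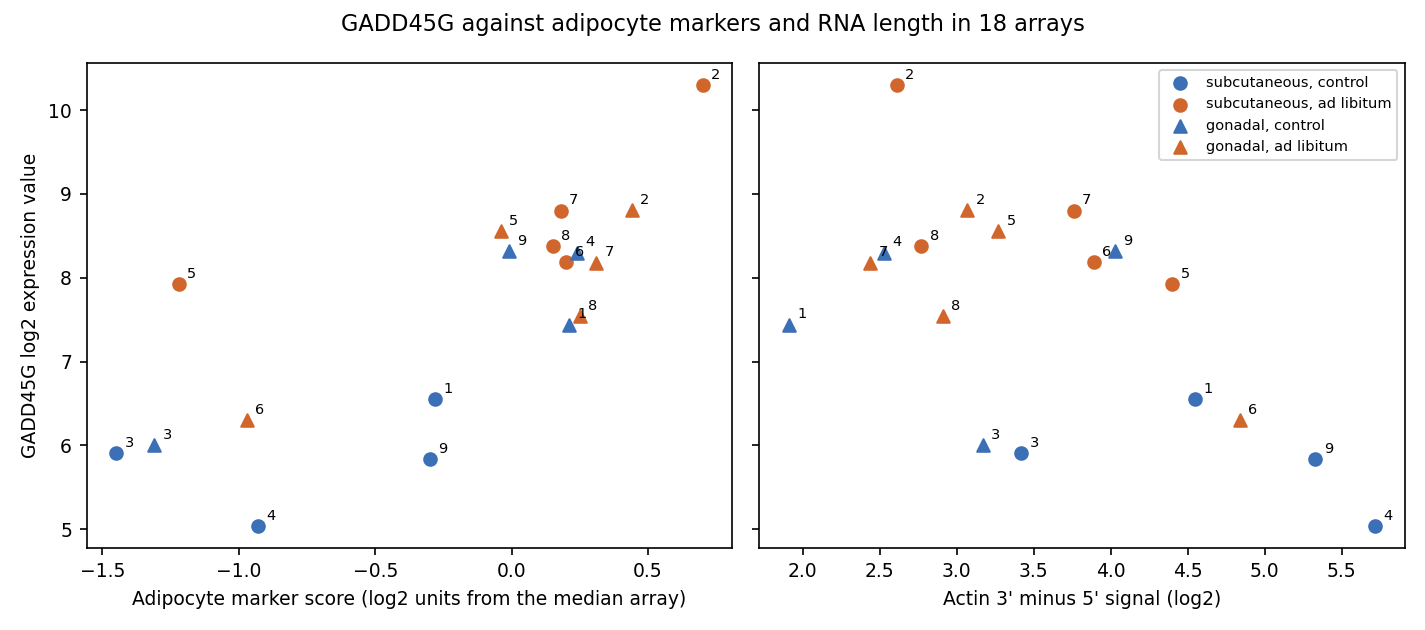
GADD45G log2 values (vertical axis) against the fat cell marker score (left) and the actin 3' minus 5' signal in log2 units (right) in 18 arrays; circles are subcutaneous, triangles gonadal, blue control and orange ad libitum, with dog numbers. The lowest fat cell scores, -1.45 to -0.93 in 5 arrays, go with GADD45G values of 5.04 to 6.30 except in subcutaneous dog 5, at 7.92.

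In gonadal fat GADD45G did not pass for feeding. The control arrays read 7.44 in dog 1, 6.00 in dog 3, 8.30 in dog 4 and 8.32 in dog 9 (mean 7.51 ± 1.09, SD, n = 4). The ad libitum arrays read 8.81 in dog 2, 8.56 in dog 5, 6.30 in dog 6, 8.18 in dog 7 and 7.54 in dog 8 (mean 7.88 ± 1.00, SD, n = 5). The groups overlapped over most of their range, and each held 1 low array, dog 3 among the controls and dog 6 among the ad libitum dogs. The difference was 0.36 ± 0.58 log2 units (95% interval -0.87 to 1.60, limma adjusted p = 0.99994). Leaving out each dog in turn gave -0.14 (without dog 3) to 0.76 (without dog 6), with 0.13 without dog 2, 0.19 without dog 5, 0.62 without dog 4 and 0.63 without dog 9. It was 0.58 without the 4 arrays high in muscle or cilia markers, 0.56 with the actin signal and 0.13 with the fat cell score in the fit. In this comparison 0% of the 21484 probe sets passed (531 had an unadjusted p under 0.05, limma), and 0 of the 3 members.

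Gonadal dogs 3 and 6 also had the lowest fat cell scores of their depot, -1.31 and -0.97. Over the 9 gonadal arrays GADD45G and that score had Pearson's r = 0.87 (exact permutation p = 0.012, 0.144 adjusted over 12 relations) and Spearman's rho = 0.53 (exact permutation p = 0.148, adjusted 0.552). Without dogs 3 and 6 r was -0.01, so the relation rests on these arrays. With deviations from the feeding group means it was 0.86 over all 9. The 12 relations, of 3 members with the scores of fat cells, immediate early genes and stroma and the actin signal in gonadal fat, were chosen after the data were seen. After adjustment the smallest p among them was 0.144.

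Across the 4 groups the GADD45G mean was lowest in subcutaneous control fat (5.83), then 7.51 in gonadal control, 7.88 in gonadal ad libitum and 8.72 in subcutaneous ad libitum fat. Neighbours in this order overlapped in each case. Within dogs, gonadal minus subcutaneous GADD45G was positive in all 4 control dogs, at 0.89 in dog 1, 0.09 in dog 3, 3.26 in dog 4 and 2.48 in dog 9. It was negative in 4 of 5 ad libitum dogs, at -1.49 in dog 2, -1.89 in dog 6, -0.62 in dog 7 and -0.84 in dog 8, and 0.64 in dog 5. The depot difference was thus of opposite sign in most dogs of the 2 feeding groups, with group estimates of 1.68 ± 0.615 and -0.84 ± 0.55. In control dogs the estimate was 1.15 without dog 4, 1.32 without the 4 arrays high in muscle or cilia markers, 1.11 with the fat cell score and 0.76 with the actin signal in the fit. In ad libitum dogs it was -0.63 without the 4 arrays and -0.45 without subcutaneous dog 2 alone or gonadal dog 6 alone. No test is given for these, because they contain the subcutaneous values that chose the gene.

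GADD45B differed little with feeding in subcutaneous fat. The control arrays read 8.98 in dog 1, 9.48 in dog 3, 9.12 in dog 4 and 9.01 in dog 9, and the ad libitum arrays 8.87 in dog 2, 8.89 in dog 5, 10.23 in dog 6, 8.30 in dog 7 and 8.83 in dog 8. The means were 9.15 ± 0.23 (SD, n = 4) and 9.02 ± 0.72 (SD, n = 5), a difference of -0.13 ± 0.45. Dog 6 was the highest array of the series for this gene and dog 7 the lowest of its group, so the ad libitum values lay on both sides of the controls. In gonadal fat the difference was 0.53 ± 0.45 (95% interval -0.42 to 1.48, limma adjusted p = 0.99994). Leaving out each dog in turn moved it from 0.17 (without dog 3) to 0.92 (without dog 9), with 0.27 without dog 1 and 0.30 without dog 6, and it was 0.16 without the 4 arrays high in muscle or cilia markers. In subcutaneous fat it was 0.03 without those arrays, 0.22 with the actin signal in the fit and -0.43 (without dog 6) to 0.06 (without dog 7) with each dog left out.

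GADD45B was lower in gonadal than in subcutaneous fat in 9 of 9 dogs. The share of all probe sets with the same sign in all 9 dogs was not counted. In control dogs the gonadal arrays read 7.05 in dog 1, 6.73 in dog 3, 8.47 in dog 4 and 8.99 in dog 9 (mean 7.81 ± 1.09, SD, n = 4). In ad libitum dogs they read 8.54 in dog 2, 7.72 in dog 5, 9.24 in dog 6, 8.24 in dog 7 and 7.95 in dog 8 (mean 8.34 ± 0.59, SD, n = 5). The size of the within-dog difference varied widely, from -2.75 in dog 3 and -1.93 in dog 1 to -0.06 in dog 7 and -0.02 in dog 9. In each feeding group alone the difference missed the threshold, at -1.34 ± 0.47 in control dogs (limma adjusted p = 0.127, 2.92% of probe sets passed, 627 or, with the dog as a random block, 1346) and -0.68 ± 0.42 in ad libitum dogs (limma adjusted p = 0.349, 7.19% passed, 1545 or, with that block, 2495).

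Without the 4 arrays high in muscle or cilia markers these were -1.18 in control dogs (adjusted p = 0.365) and -1.05 in ad libitum dogs (adjusted p = 0.219). In control dogs the difference was -0.87 without dog 3 and -0.83 with the actin signal in the fit.

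Averaged over all 9 dogs, a comparison added after the data were seen, GADD45B was lower in gonadal fat by a factor of 1.97 (log2 difference -0.97 ± 0.32, 95% interval -1.64 to -0.31, limma adjusted p = 0.0439). In that comparison 17.0% of all probe sets passed, and 2 of 2 members tested in it did, GADD45B and GADD45GIP1. The call on GADD45B was lost without dog 1, 2, 3, 4, 5, 7 or 8, with adjusted p up to 0.126, and with the actin signal in the fit (-0.72, adjusted p = 0.177). That signal was higher in subcutaneous control arrays (4.75) than in gonadal control arrays (2.91). For GAPDH these means were 2.52 and 2.32. Without the 4 arrays high in muscle or cilia markers the difference was -1.11 (adjusted p = 0.0693).

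Markers of other cells differed between the depots over the same 9 dogs, where 17.0% of all probe sets passed. All 12 macrophage markers tested were negative (6 passed, median -0.92), as were all 7 stromal markers (3 passed, median -0.56). Of 7 mesothelial markers 6 passed as higher in gonadal fat and 1 as lower (median of the list 3.71). The part of these cells in the depot differences of GADD45B and GADD45GIP1 was not tested.

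**Figure D3:**
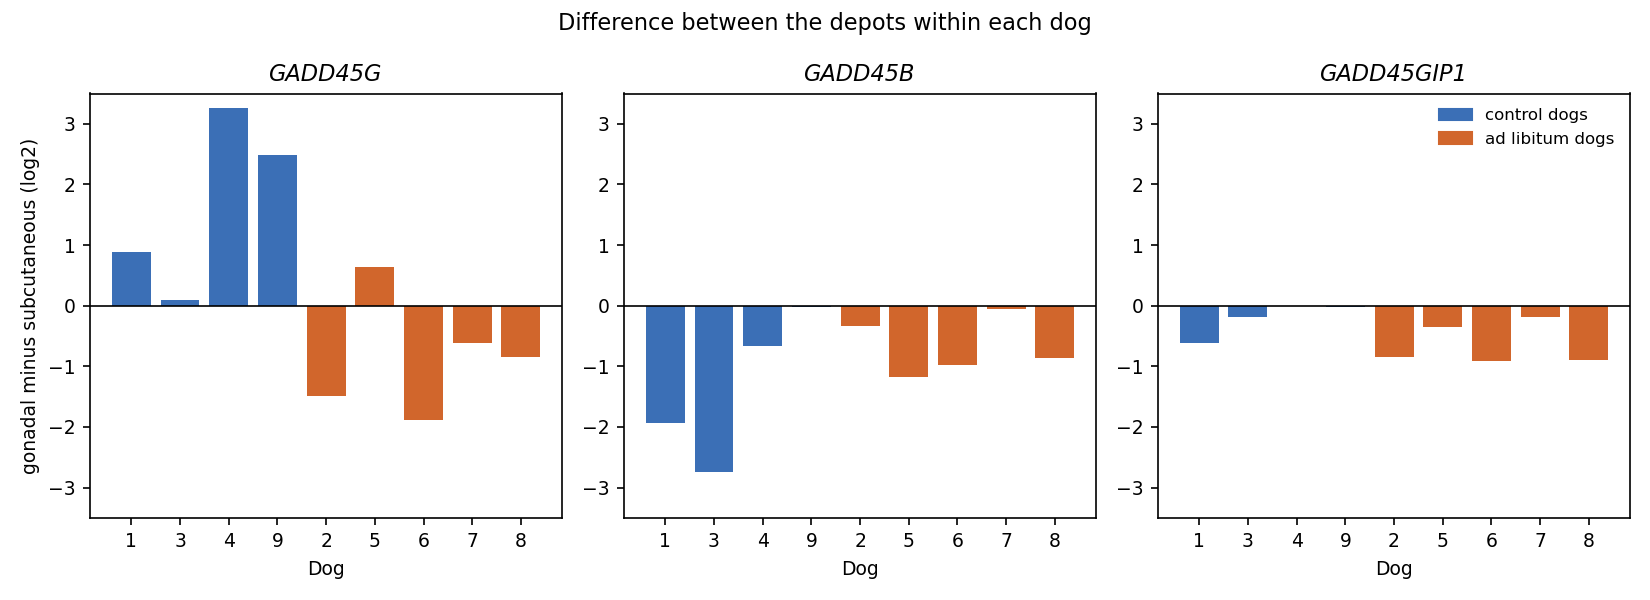
Gonadal minus subcutaneous log2 value within each of the 9 dogs (horizontal axis, control dogs in blue, then ad libitum dogs in orange) for the 3 probe sets. GADD45B bars lie at or below 0 in all 9 dogs, from -2.75 to -0.02, while GADD45G bars are above 0 in the 4 control dogs and below it in 4 of 5 ad libitum dogs.

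GADD45GIP1 was lower in gonadal than in subcutaneous fat of ad libitum dogs. The subcutaneous arrays read 6.33 in dog 2, 5.50 in dog 5, 6.01 in dog 6, 5.51 in dog 7 and 6.36 in dog 8 (mean 5.94 ± 0.42, SD, n = 5). The gonadal arrays read 5.49 in dog 2, 5.15 in dog 5, 5.10 in dog 6, 5.33 in dog 7 and 5.46 in dog 8 (mean 5.31 ± 0.17, SD, n = 5). The depots did not overlap, though their nearest arrays read 5.50 and 5.49, and all 5 dogs were lower in gonadal fat. The share of all probe sets without such overlap was not counted. The difference was -0.64 ± 0.18 (95% interval -1.02 to -0.25, limma adjusted p = 0.0454), in a comparison where 7.19% of probe sets passed. Each of dogs 2 to 9 ended this call when left out, with adjusted p from 0.0567 to 0.148, and so did leaving out the 4 arrays high in muscle or cilia markers (-0.63, adjusted p = 0.108).

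In control dogs GADD45GIP1 read 6.11 in dog 1, 5.57 in dog 3, 5.52 in dog 4 and 5.48 in dog 9 in subcutaneous fat. In their gonadal fat it read 5.50 in dog 1, 5.38 in dog 3, 5.53 in dog 4 and 5.47 in dog 9. The depots overlapped, and the difference was -0.20 ± 0.20 (95% interval -0.64 to 0.23, limma adjusted p = 0.612). It was -0.07 without dog 1, -0.33 without the 4 arrays high in muscle or cilia markers, -0.34 with the fat cell score and -0.51 with the actin signal in the fit. Over all 9 dogs it was -0.44 ± 0.14 (limma adjusted p = 0.0344). That call was lost without dog 1, 2, 3, 4, 6 or 8, with adjusted p up to 0.0929, and without the 4 arrays (-0.50, adjusted p = 0.0702). For feeding the differences were 0.27 ± 0.19 in subcutaneous fat and -0.16 ± 0.19 in gonadal fat (95% interval -0.57 to 0.25, limma adjusted p = 0.99994). Without the 4 arrays they were 0.14 and -0.16, and with the actin signal in the fit 0.06 and -0.10.

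The feeding response did not pass the test of a difference between depots in either gene tested for it, in a comparison where 0% of probe sets passed (1344 had an unadjusted p under 0.05, limma). As gonadal minus subcutaneous response it was 0.65 ± 0.64 for GADD45B (limma adjusted p = 0.801) and -0.43 ± 0.27 for GADD45GIP1 (limma adjusted p = 0.748). For GADD45G it was -2.52 ± 0.825 and was not tested.

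The 3 probe sets did not share 1 pattern across the 18 arrays. Pearson's r was -0.04 between GADD45B and GADD45G, 0.37 between GADD45B and GADD45GIP1 and 0.33 between GADD45G and GADD45GIP1. As deviations from the group means these became 0.08, 0.08 and 0.46. These and the values that follow are descriptions, since arrays of a dog and of a group are not independent.

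The genes whose pattern was most like that of GADD45G over 18 arrays, among 8656 genes, were EEF1E1, a cofactor of tRNA synthetases (r = 0.93), TMCO1, a calcium channel of the endoplasmic reticulum (0.92), TMEM150C (0.91), VDAC1, the main channel of the outer mitochondrial membrane (0.91), and SETD9 (0.89). As deviations from the group means r was 0.79 to 0.86 for these 5. This is no separate check, because it uses the same arrays by which they were picked as the highest of 8656. All 5, like GADD45G, had their lowest mean in subcutaneous control fat and their highest in subcutaneous ad libitum fat. They were picked by their likeness to GADD45G, so this order is no separate result. TMEM150C went from 5.08 ± 0.55 (SD, n = 4) to 6.49 ± 0.25 (SD, n = 5) between these groups. EEF1E1 went from 9.22 ± 0.24 (SD, n = 4) to 9.96 ± 0.39 (SD, n = 5), and stood at 9.72 and 9.69 in gonadal control and ad libitum fat.

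For GADD45B the most alike were HSPA8, a heat shock cognate chaperone (0.85), MARCHF3, a ubiquitin ligase (0.84), PDRG1 (0.78), NDFIP2, an adaptor of NEDD4 ligases (0.78), and ZFAND2A, an arsenite-inducible gene (0.78). HSPA8 had means of 14.54 (control) and 14.48 (ad libitum) in the subcutaneous depot, against 13.35 and 13.82 in the gonadal one. The likeness of MARCHF3, PDRG1 and NDFIP2 lay mostly in gonadal fat, with r = 0.88, 0.83 and 0.90 over its 9 arrays. Over the 9 subcutaneous arrays r was 0.12, 0.21 and 0.05. For HSPA8 and ZFAND2A r was 0.83 and 0.75 in gonadal and 0.66 and 0.56 in subcutaneous arrays.

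For GADD45GIP1 they were ALKBH1, a nucleic acid demethylase (0.91), TRMT61B, a mitochondrial tRNA methyltransferase (0.85), TIMM10, a chaperone of mitochondrial import (0.85), the proteasome subunit PSMB3 (0.85) and POLR3K, a subunit of RNA polymerase III (0.83). Over the 9 subcutaneous arrays r was 0.89, 0.90, 0.83, 0.76 and 0.85 in this order. Over the 9 gonadal arrays it was 0.65, 0.48, 0.58, 0.88 and 0.70. ALKBH1 had means of 4.50 to 5.10 in the 4 groups, not far above the floor.

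The pathways around GADD45 are given first for feeding and for depot within each feeding group. Of the p38 and JNK cascade 14 genes were tested and none passed in the 4 comparisons of feeding and depot. Of all probe sets 2.36% and 0% passed for feeding in subcutaneous and gonadal fat. For depot 2.92% passed in control and 7.19% in ad libitum dogs. A count of none in 14 is near these shares. MAP3K4, the kinase that GADD45 proteins switch on, stood at -0.74 ± 0.23 for feeding in subcutaneous fat (limma adjusted p = 0.0904), from a mean of 8.85 to 8.12, and at -0.30 ± 0.23 in gonadal fat. MAPK9, which encodes JNK2, stood at 1.79 ± 0.60 in subcutaneous fat (limma adjusted p = 0.102). For depot, MAPK14, the p38-alpha kinase, stood at 0.38 ± 0.17 in control dogs (limma adjusted p = 0.207) and 0.47 ± 0.15 in ad libitum dogs (limma adjusted p = 0.0669).

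Of 7 cell cycle partners 1 passed, for depot in ad libitum dogs, where 7.19% of all probe sets did. PCNA, the DNA clamp that GADD45 proteins bind, was lower in gonadal fat of ad libitum dogs (-0.41 ± 0.12, limma adjusted p = 0.048), and stood at -0.44 ± 0.13 in control dogs (limma adjusted p = 0.0788). CDKN1A, the gene of p21, stood at -1.78 ± 0.66 for depot in control dogs (limma adjusted p = 0.143), with means of 10.13 in subcutaneous and 8.35 in gonadal fat.

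Of 14 genes of p53 and its targets none passed for feeding, beside 2.36% of all probe sets in subcutaneous and 0% in gonadal fat. For depot SESN1, a stress-induced inhibitor of mTORC1 signalling, was higher in gonadal fat of control dogs (0.84 ± 0.21, limma adjusted p = 0.0418) and of ad libitum dogs (1.20 ± 0.19, limma adjusted p = 0.00145). In these depot comparisons 2.92% and 7.19% of all probe sets passed. PERP, a desmosome protein of epithelia, was at least 7.16-fold higher in gonadal fat of ad libitum dogs (limma adjusted p = 0.0315), a bound because its subcutaneous mean lay below log2 4. Of 12 genes of DNA demethylation and repair 1 passed, PARP1, which senses DNA breaks, higher in gonadal fat of ad libitum dogs (0.87 ± 0.20, limma adjusted p = 0.0144), again beside 7.19% of all probe sets.

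The list of the integrated stress response holds the other genes first named as growth arrest and DNA damage inducible. Of its 14 genes tested 1 passed as higher with feeding in subcutaneous fat, beside 2.36% of all probe sets. For depot 1 passed as lower in gonadal fat in each feeding group, beside 2.92% in control and 7.19% in ad libitum dogs. DDIT3, the gene of the CHOP factor, was lower in gonadal fat of control dogs (-1.62 ± 0.33, limma adjusted p = 0.0153), and in ad libitum dogs its means were 6.57 in subcutaneous and 5.57 in gonadal fat (limma adjusted p = 0.0509). ASNS, asparagine synthetase, was higher with feeding in subcutaneous fat (1.63 ± 0.40, limma adjusted p = 0.0447) and lower in gonadal fat of ad libitum dogs (-1.60 ± 0.37, limma adjusted p = 0.0173). Its mean was 10.23 in subcutaneous ad libitum fat and 8.33 to 8.63 in the other groups.

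Averaged over all 9 dogs, 17.0% of all probe sets passed for depot. MAPK14 was higher in gonadal fat (0.43 ± 0.11, limma adjusted p = 0.015), PCNA lower (-0.42 ± 0.09, limma adjusted p = 0.00475), PARP1 higher (0.69 ± 0.15, limma adjusted p = 0.00528) and DDIT3 lower (-1.28 ± 0.22, limma adjusted p = 0.00135). Of the p38 and JNK cascade 1 of 14 genes passed there, of cell cycle partners 1 of 7, of p53 and its targets 7 of 14 (4 higher and 3 lower) and of DNA demethylation and repair 3 of 12. The latter were PARP1 and, lower, the excision repair genes APEX1 (-0.58 ± 0.17, limma adjusted p = 0.0271) and ERCC1 (-0.45 ± 0.15, limma adjusted p = 0.0456). Of the integrated stress response 4 of 14 passed, all lower, of upstream regulators 4 of 18 (1 higher and 3 lower) and of the mitochondrial large ribosome 3 of 47, all lower.

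Of 18 upstream regulators 1 passed for feeding, NFKB1, lower in subcutaneous fat of ad libitum dogs (-0.85 ± 0.21, limma adjusted p = 0.0468). In that comparison 2.36% of all probe sets passed, or 506. This count was 5 without the 4 arrays high in muscle or cilia markers and 1 with the actin signal in the fit. For depot in ad libitum dogs, where 7.19% of all probe sets passed, SMAD2, a mediator of TGF-beta signalling, was lower (-0.67 ± 0.18, limma adjusted p = 0.0313). In the same dogs WT1 was at least 9.97-fold higher in gonadal fat (limma adjusted p = 0.0147). WT1 is also a marker of mesothelium and 1 of the 7 measured genes in its score, so the 2 are not independent. The mesothelium score ran from -2.96 to -2.48 in subcutaneous and from 0.12 to 3.73 in gonadal arrays of these dogs. The part of these cells in the difference was not tested.

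GADD45GIP1 belongs to the mitochondrial large ribosome, and of its other genes at most 1 passed in each of the 4 comparisons. For feeding in subcutaneous fat 42 of 47 genes tested had a positive difference and none passed, beside 2.36% of all probe sets. The median of the list was 0.18 against 0 over all 8656 genes. In gonadal fat 15 were positive (median -0.06). For depot 35 were positive in control dogs (median 0.12), and 12 in ad libitum dogs (median -0.16). In ad libitum dogs 1 passed, MRPL55 (-0.69 ± 0.17, limma adjusted p = 0.024), beside 7.19% of all probe sets. GADD45GIP1 itself stood at 0.27 in subcutaneous and -0.16 in gonadal fat for feeding. For depot it stood at -0.20 in control dogs, opposite in sign to the list median, and at -0.64 in ad libitum dogs. These comparisons share arrays and are not independent of each other.

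**Figure D4:**
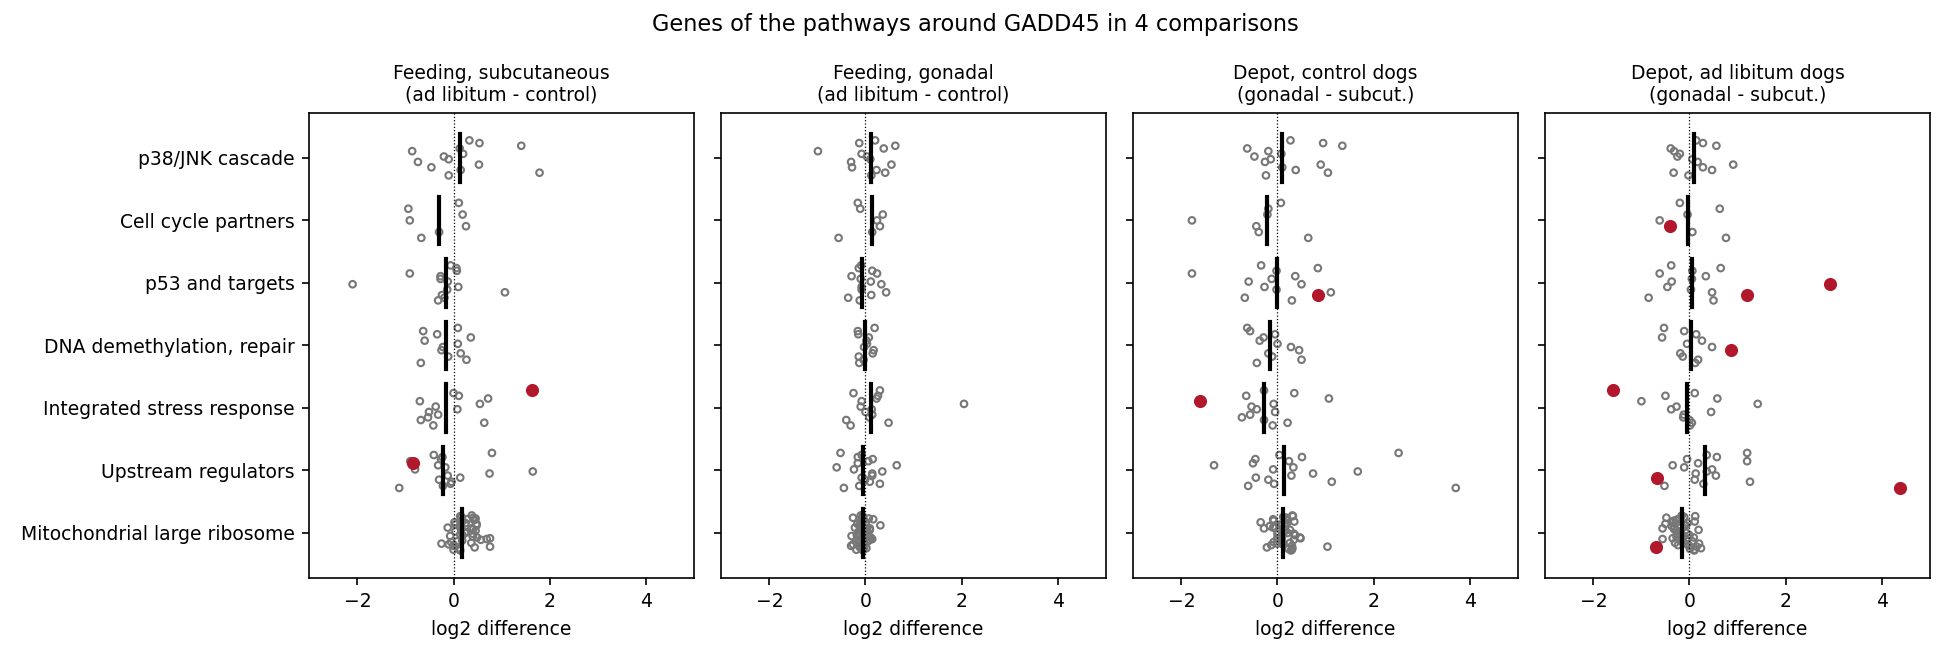
Log2 differences (horizontal axis) of the tested genes of 7 lists (rows) in 4 comparisons (panels); open points did not pass, filled red points passed an adjusted p of 0.05, and black bars are list medians. Most points lie near 0, the gonadal feeding panel holds no filled point, and the point farthest to the right for depot in ad libitum dogs is WT1.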

How the data were processed

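Total RNA of 18 fat samples was labelled with biotin and hybridised to Affymetrix canine arrays, per the labels. The submitters' processing notes name GCRMA for the deposited values, which are read here as log2. Sources used here give no logarithm base, GCRMA version or detection calls. Every column matched a sample and no arrays were identical. The number of arrays limits the precision.

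Of 42924 probe sets that were not array controls, 21484 reached log2 4 in at least 4 arrays and were tested with limma 3.58.1 in R 4.3.3. The fit estimated 4 group means over 18 arrays with no block for the dog. All limma tests were two-sided. Their p-values were adjusted over all tested probe sets by Benjamini-Hochberg, with a threshold of 0.05. Errors after ± are standard errors unless SD is given. The animal number pairs the depots of a dog. Deviations from the group means correlated at -0.05 to 0.53 between the depots of a dog, and the block was an alternative. Arrays of 1 group are separate dogs. Where a gene had several probe sets, the one of highest mean stood for it. Genes named are the members, up to 3 per list and comparison with the smallest p and those past the threshold, and the 5 most correlated with each member. The members and lists were chosen with earlier results of these data known. A marker score over 3 marked arrays with other tissue. The fit was tested on simulated data. Correlations used every ordering of 9 dogs. Python 3.11.15 and matplotlib 3.10.9 drew the plots.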

Additional observations from a re-analysis of the deposited data

Results flagged for a closer look

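GADD45GIP1 in subcutaneous control fat had 1 array apart from the others. Dog 1 read 6.11, and the other 3 dogs read 5.48 to 5.57, so the gap to the nearest dog was 0.86 of the whole range of the group. Chance alone would mark about 1 in 20 groups in this way.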

How the results depend on the processing

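The log2 difference of GADD45G for feeding in subcutaneous fat was 2.08 to 2.93 in the 13 alternatives that left out no whole dog. Without 1 dog it was 2.49 to 3.12. These values reuse the arrays that chose the gene, so they describe the estimate and are no independent support for it. No calls of members are given there, since that comparison chose the family. For feeding in gonadal fat 0 members passed throughout, and GADD45G ranged from -0.14 (without dog 3, sign turned) to 0.76. For depot in control dogs 0 members passed throughout. For depot in ad libitum dogs GADD45GIP1 missed the threshold at -0.64 with no filter (adjusted p = 0.0688), trended and robust moderation (0.0535), only the arrays of the comparison (0.104) and without subcutaneous dog 3 (0.0548). It also missed at -0.63 without the 4 arrays high in muscle or cilia markers, -0.54 without subcutaneous dog 2 and -0.58 without gonadal dog 6, and the count of members fell from 1 to 0 in each. Without 1 dog it ranged from -0.75 to -0.57 and the count from 0 to 1. Over all 9 dogs the count of 2 became 0 with no filter (GADD45B -0.97, GADD45GIP1 -0.44), without the 4 arrays (-1.11, -0.50) and without subcutaneous dog 2 (-1, -0.39). It became 1 with the actin covariate (GADD45B -0.72) and without subcutaneous dog 3 (GADD45B -0.93). Without 1 dog it was 0 to 2, with GADD45B from -1.17 to -0.77 and GADD45GIP1 from -0.51 to -0.38. The cause of these losses was not tested beyond the fewer arrays or more probe sets that some settings hold.

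With the dog as a replicate block, random or fixed, no member gained or lost a call. The adjusted p of GADD45B over all 9 dogs was 0.0227 and 0.03, and that of GADD45GIP1 in ad libitum dogs 0.0208 and 0.0384. For subcutaneous feeding the count of probe sets past the threshold, 506, was 173 with no filter, 308 after quantile normalization, 60 with only its arrays, 5 without the 4 arrays, 1 with the actin and 154 with the fat cell covariate, 54 without subcutaneous dog 3, 36 without subcutaneous dog 2, 1315 without gonadal dog 6 and 3 to 2703 without 1 dog. For depot in control dogs 627 became 275 with no filter, 412 with only its arrays, 341 without the 4 arrays, 199 with the actin covariate, 302 without subcutaneous dog 3, 1264 without gonadal dog 6, 1346 with the random block and 143 to 1050 without 1 dog. In ad libitum dogs 1545 became 984 with only its arrays, 2886 with the fat cell covariate, 2495 with the random block and 497 to 1620 without 1 dog, and over all dogs 3653 became 2242 to 4131. Averaging probe sets was not run, since each member has 1. The fits with single arrays left out, the fat cell covariate and the comparison over all dogs were added after the data were seen.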

Other observations

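Immediate early genes, which respond within minutes to handling of tissue, did not pass for any of 16 genes tested in the 4 comparisons. Of all probe sets 2.36% and 0% passed for feeding in subcutaneous and gonadal fat. For depot 2.92% passed in control and 7.19% in ad libitum dogs. The 16 genes had a median feeding difference of -0.34 in subcutaneous and -0.26 in gonadal fat. Their median depot difference was 0.34 in control dogs and 0.28 in ad libitum dogs. FOS stood at 2.69 ± 0.73 for depot in control dogs (limma adjusted p = 0.056), with means of 9.52 in subcutaneous and 12.22 in gonadal fat. KLF4 stood at -1.12 ± 0.34 (limma adjusted p = 0.0789) and EGR1 at 2.52 ± 0.92 (limma adjusted p = 0.135). Of the 16 genes 12 were positive there and 4 negative. Over all 9 dogs 1 of 16 passed, KLF4, lower in gonadal fat (-0.89 ± 0.22, limma adjusted p = 0.0132), beside 17.0% of all probe sets. For depot in control dogs GADD45B stood at -1.34, opposite in sign to FOS and EGR1 and of the same sign as KLF4. Pearson's r between GADD45B and the list score was 0.14 over 18 arrays and 0.48 as deviations from the group means. It was 0.68 over the 9 subcutaneous and 0.17 over the 9 gonadal arrays. The part of tissue handling in GADD45B was not tested. The list score was 1.26 in gonadal dog 9, the highest of all arrays.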
